A study of Mus musculus with 27 samples.

Results

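The cortex of the hemisphere opposite a stroke, 3 to 6 h after blood flow returned, was compared with the cortex of sham-operated mice. The comparison used 9 of the 27 libraries of the series: 3 of contralateral cortex at 3 h, 3 of contralateral cortex at 6 h, and 3 of sham cortex. The 6 contralateral libraries were pooled as the mean of both times, and the libraries were chosen by their labels alone. All mice were wild-type C57BL6 aged 7 to 8 weeks. In the stroke groups a suture closed the right middle cerebral artery for 35 min under isoflurane and was then withdrawn, so the contralateral cortex is that of the left hemisphere. Sham mice had the same anaesthesia and their arteries were exposed, but no suture was inserted. Replicates are animals from distinct surgery days. The sex of the mice, the hemisphere taken from sham mice, and the interval and time of day at which sham tissue was taken are not given in the labels. Stroke, hemisphere and time of collection therefore cannot be told apart in this comparison.

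The cortex of the uninjured side keeps its own blood supply in this model, is joined to the injured side through the corpus callosum, and often serves as an internal control. Immediate early genes are transcribed within minutes of synaptic activity or growth factor signalling, through calcium, cAMP and the ERK branch of the MAP kinase pathway, without new protein synthesis. Their products include transcription factors of the Egr, Fos and Nr4a families and the synaptic protein Arc. ERK also induces its own inhibitors, among them Sprouty proteins and dual specificity phosphatases.

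Total counts ran from 26505996 to 46624977 in the contralateral libraries and from 34226854 to 43616527 in the sham libraries, and the lowest Spearman correlation between any pair of the 9 was 0.981. Levels are given as CPM, TMM-normalized counts relative to library size. One library stood apart: in replicate 1 of contralateral cortex at 3 h, the trend of levels with GC content spanned 1.32 log2 units, compared with 0.409 or less in the other 8 libraries, and mitochondrial ribosomal RNA took 36.7% of its counts, against at most 30.5%. Markers of cortical tissue were present in both groups. The summed level of 17 cortical layer and excitatory neuron markers was 943 to 1040 CPM in contralateral and 908 to 1020 CPM in sham libraries, and that of 16 neuron markers was 6980 to 7470 CPM in contralateral and 6800 to 7490 CPM in sham libraries. Summed striatal markers, from tissue beneath the cortex, were 195 to 572 CPM in contralateral and 328 to 510 CPM in sham libraries. Of the 12, 11 had a log2 fold change below 0, beside 48.6% of all genes (median -0.31, none passing the test). Summed choroid plexus markers were 165 to 252 CPM in 5 contralateral libraries, 752 CPM in replicate 1 at 6 h, and 169 to 200 CPM in sham libraries. Summed meningeal and fibroblast markers were 233 to 441 CPM in contralateral libraries, against 560 CPM in sham replicate 1 and 323 and 343 CPM in the other sham libraries (12 of 13 below 0, median -0.25, none passing). Globin and red cell genes summed to 60.4 to 86.7 CPM in contralateral and 79.9 to 98.9 CPM in sham libraries (5 of 6 below 0, median -0.30, none passing). The part of these differences in the results was not tested.

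Early contralateral cortex differed from sham cortex in 13 genes, all of them lower. They were Egr2, Arc, Egr1, 1700016P03Rik, Hcrtr2, Spry4, Rnd3, Trib1, Dusp6, Per2, Trib2, Prdm15 and D8Ertd82e. These are 0.0719% of the 18087 genes tested (edgeR quasi-likelihood test, Benjamini-Hochberg adjusted p under 0.05). No gene was higher at this threshold, although 536 genes (2.96%) were higher and 446 (2.47%) lower at an unadjusted p under 0.05, and DESeq2 called 12 higher and 34 lower genes, the 13 among them. For each of the 13 genes, all 6 contralateral libraries lay below all 3 sham libraries, an arrangement found for 287 of the genes tested, or 1.59%. The 13 were picked as lower in these same libraries, which favours this arrangement. In 5 of the 13 the fall was at least 2-fold. The count depended most on sham replicates 1 and 3. Without sham replicate 1 it was 5, of which all were among the 13 (1700016P03Rik, Hcrtr2, Spry4, Rnd3 and Prdm15). Without sham replicate 3 it was 6, again all among the 13 (Arc, Egr1, 1700016P03Rik, Spry4, Rnd3 and Dusp6). It was 11 without sham replicate 2, and 9 to 13 without any single contralateral library. Spry4, 1700016P03Rik and Rnd3 passed without any single one of the 9 libraries. In fits of only the 9 libraries compared, 8 of the 13 passed, and 7 with surgery day as a block. In bulk tissue, fewer cells of a type and less RNA per cell cannot be told apart.

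**Figure D1:**
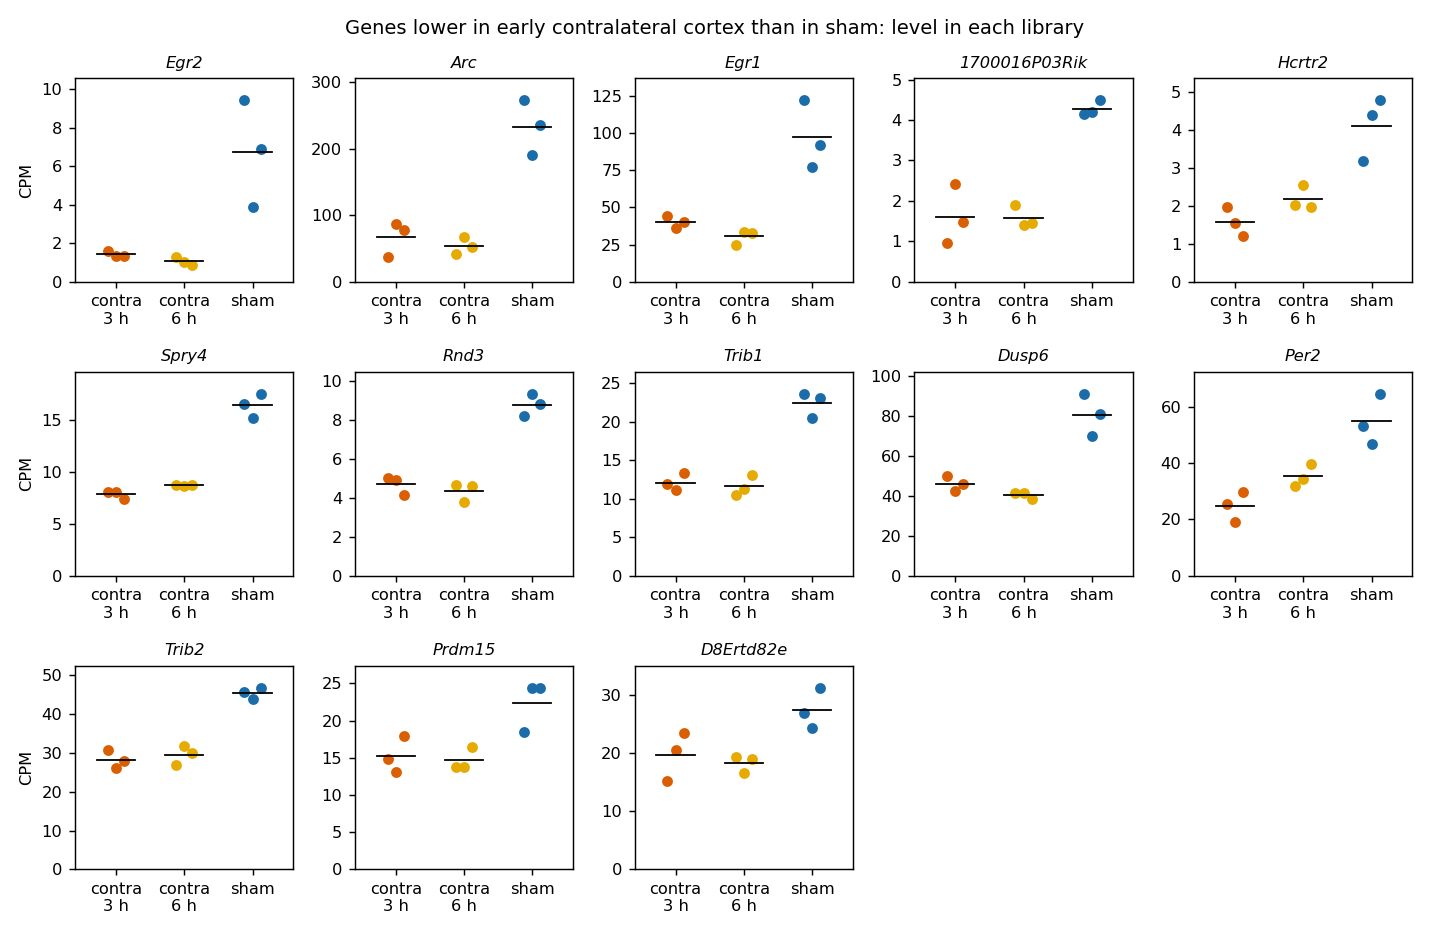
Level in CPM of the 13 genes lower in early contralateral cortex than in sham cortex, 1 panel per gene. Points are libraries, grouped as contralateral 3 h, contralateral 6 h and sham (3 each), bars are group means, and every axis starts at 0. In every panel the 6 contralateral points lie below the 3 sham points.

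Among the transcription factors, Egr1 and Egr2 were lower. Egr1, a zinc finger factor induced by synaptic activity (mm10, chromosome 18, 34859823 to 34864984, plus strand), had 44.0, 36.3 and 40.1 CPM in contralateral cortex at 3 h and 24.7, 33.7 and 33.1 CPM at 6 h, against 122, 77.3 and 91.8 CPM in sham cortex. The highest contralateral library was well below the lowest sham library, and sham replicate 1 was the highest of all. Egr1 fell 2.78-fold (log2 fold change -1.47 ± 0.22, SE; edgeR adjusted p = 0.00394), and without sham replicate 1 its adjusted p was 0.052. Egr2, a related factor, had 1.61, 1.34 and 1.36 CPM in contralateral cortex at 3 h and 1.27, 1.03 and 0.891 CPM at 6 h, against 9.43, 3.91 and 6.88 CPM in sham cortex. The contralateral libraries were close together and the sham libraries were widely spread. Its fall was 5.44-fold (-2.44 ± 0.43, edgeR adjusted p = 0.0269). It did not pass with surgery day as a block (-2.43, adjusted p = 0.062), or without any one of 8 of the 9 libraries in turn, with adjusted p of up to 0.241.

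Arc, whose protein removes AMPA receptors from synapses and whose transcript follows neuronal firing, had 37.2, 86.3 and 77.6 CPM in contralateral cortex at 3 h and 42.4, 67.6 and 52.1 CPM at 6 h, against 273, 190 and 236 CPM in sham cortex (chromosome 15, 74669083 to 74672570, minus strand). Every contralateral library was far below every sham library. Arc fell 3.87-fold (-1.95 ± 0.29, edgeR adjusted p = 0.0051), and without sham replicate 1 its adjusted p was 0.0547.

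The inhibitors of ERK signalling were represented by Spry4 and Dusp6. Spry4, a Sprouty protein gene (chromosome 18, 38586247 to 38601415, minus strand), had 8.05, 8.02 and 7.39 CPM in contralateral cortex at 3 h and 8.76, 8.62 and 8.76 CPM at 6 h, against 16.5, 15.2 and 17.5 CPM in sham cortex. Both groups were tight and lay far apart. It was the smallest adjusted p of the comparison, with a 1.98-fold fall (-0.99 ± 0.11, edgeR adjusted p = 2.03e-05), and Spry4 passed in all 20 alternative settings run, with adjusted p of at most 0.00968. Dusp6, the phosphatase that dephosphorylates ERK in the cytoplasm (chromosome 10, 99263231 to 99267489, plus strand), had 49.9, 42.5 and 45.9 CPM in contralateral cortex at 3 h and 41.5, 41.2 and 38.4 CPM at 6 h, against 91.1, 69.8 and 81.0 CPM in sham cortex. It fell 1.87-fold (-0.90 ± 0.15, edgeR adjusted p = 0.00494), and without sham replicate 1 the adjusted p of Dusp6 was 0.0706. Other members of both families, picked after the values were seen, did not pass. Of 6 Sprouty and Spred genes tested, Spry2 averaged 23.3 ± 1.98 CPM in contralateral (SD, n = 6) and 31.4 ± 2.00 CPM in sham cortex (n = 3; -0.44, edgeR adjusted p = 0.34). Spry1 averaged 7.07 ± 1.02 CPM in contralateral and 5.91 ± 0.922 CPM in sham cortex (0.25, adjusted p = 0.988). Of 23 Dusp genes, Dusp4 averaged 7.13 ± 0.865 CPM in contralateral and 12.5 ± 1.07 CPM in sham cortex (-0.81, adjusted p = 0.223), and the median log2 fold change of the family was 0.00.

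Of the 3 Tribbles pseudokinase genes, a family picked after the values were seen, 2 were lower, beside 0.0719% of all genes. These pseudokinases bring a ubiquitin ligase to its substrates and bind MAP kinase kinases. Trib1 ran from 10.5 to 13.3 CPM in contralateral cortex, with a median of 11.6 CPM, against 23.6, 20.5 and 23.1 CPM in sham cortex, a 1.89-fold fall (-0.92 ± 0.16, edgeR adjusted p = 0.0051). Trib2 ran from 26.0 to 31.8 CPM in contralateral cortex, with a median of 28.8 CPM, against 45.6, 43.8 and 46.7 CPM in sham cortex, a 1.57-fold fall (-0.65 ± 0.11, adjusted p = 0.0051). The groups were separate in both genes, with gaps wider than the spread within either group. Neither passed without sham replicate 1 (adjusted p = 0.0706 for Trib1 and 0.0547 for Trib2) or without sham replicate 3 (0.0755 for Trib1 and 0.0823 for Trib2), and Trib2 did not pass with surgery day as a block among only the 9 libraries compared (0.107). Trib3, a target of the integrated stress response, was near its lower limit of detection at 0.408 ± 0.132 CPM in contralateral and 0.25 ± 0.124 CPM in sham cortex (0.70, adjusted p = 0.988).

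Rnd3 and D8Ertd82e encode signalling proteins of other kinds. Rnd3, an atypical small GTPase that acts on the actin cytoskeleton (minus strand of chromosome 2, 51130438 to 51149111), had 5.00, 4.92 and 4.15 CPM in contralateral cortex at 3 h and 4.63, 3.80 and 4.58 CPM at 6 h, against 8.18, 9.33 and 8.84 CPM in sham cortex. The 6 contralateral libraries lay close together, well below sham. Rnd3 fell 1.94-fold (-0.96 ± 0.15, edgeR adjusted p = 0.00394), and did not pass with surgery day as a block among only the 9 libraries compared (adjusted p = 0.0683). D8Ertd82e, an older symbol of the pseudokinase scaffold gene Prag1, ran from 15.2 to 23.4 CPM with a median of 19.1 CPM in contralateral cortex, against 26.9, 24.3 and 31.2 CPM in sham cortex. Its groups nearly touched, and the 1.45-fold fall (-0.53 ± 0.11, adjusted p = 0.0479) did not pass with surgery day as a block (adjusted p = 0.0559), with RLE size factors (0.051), with only the 9 libraries compared (0.69) or without 7 of the 9 libraries in turn.

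The windows around the start sites of Egr2 and Rnd3 are shown. Egr2 had the largest fall, and the Rnd3 window holds a sequence match to the serum response element. ERK signalling acts on that element at many immediate early genes, and whether it does so at Rnd3 was not tested. Each window runs from 250 bases before to 50 after the RefSeq start site (GRCm38.p6, written on the strand of the gene). Capitals mark an E-box (CACGTG, bound by clock and other basic helix-loop-helix factors) in the Egr2 window at chr10:67535249-67535548, plus strand, and a CArG box (serum response element) in the Rnd3 window at chr2:51149062-51149361, minus strand.
Egr2: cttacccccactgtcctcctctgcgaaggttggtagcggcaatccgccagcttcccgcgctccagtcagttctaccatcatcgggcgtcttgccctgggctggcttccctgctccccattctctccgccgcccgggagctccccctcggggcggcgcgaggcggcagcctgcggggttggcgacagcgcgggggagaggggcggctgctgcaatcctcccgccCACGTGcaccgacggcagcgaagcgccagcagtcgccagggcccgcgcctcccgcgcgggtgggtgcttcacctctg
Rnd3: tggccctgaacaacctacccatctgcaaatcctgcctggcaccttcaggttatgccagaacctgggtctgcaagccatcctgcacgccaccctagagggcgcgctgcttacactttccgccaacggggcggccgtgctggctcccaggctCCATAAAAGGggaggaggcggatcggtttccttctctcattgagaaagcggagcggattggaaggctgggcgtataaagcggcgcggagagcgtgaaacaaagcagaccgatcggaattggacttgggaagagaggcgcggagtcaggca
Such windows were at hand for 6 of the 13 genes (Dusp6, Egr2, Hcrtr2, Prdm15, Rnd3 and Trib2) and were searched on both strands. The E-box was found in 1 of the 6, and in 7.15% of 32851 windows of all genes. The CArG box, added to the search after the values were seen, was found in 1 of the 6, and in 1.63% of all windows. The cAMP response half-site TGACG and the ROR/REV-ERB half-site AGGTCA were each found in the Hcrtr2 window, and in 20.8% and 16.3% of all windows. The glucocorticoid half-site AGAACA was in none of the 6, and in 19% of all windows.

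Per2, a repressor of the circadian clock that is also induced by cAMP and glucocorticoid signalling, was the clock gene that passed. It had 25.4, 19.1 and 29.9 CPM in contralateral cortex at 3 h and 32.0, 34.5 and 39.8 CPM at 6 h, against 53.2, 46.7 and 64.6 CPM in sham cortex (chromosome 1, 91415982 to 91459324, minus strand). The 3 h libraries were the lowest and the 6 h libraries lay between them and sham. Per2 fell 1.85-fold (-0.89 ± 0.15, edgeR adjusted p = 0.00521). The other 19 of 20 clock genes did not pass, and the list's median log2 fold change of 0.05 was close to that of all genes, 0.01. Among them Per1 averaged 71.8 ± 10.8 CPM in contralateral and 89.8 ± 14.6 CPM in sham cortex (-0.33, adjusted p = 0.948), and Nr1d1, the clock repressor REV-ERB alpha, averaged 51.6 ± 5.31 CPM in contralateral and 42.2 ± 6.33 CPM in sham cortex (0.29, adjusted p = 0.955). Dbp, an output gene with a strong daily rhythm, had a log2 fold change of 0.03, and the activator Arntl 0.13. Without sham replicate 3 the adjusted p of Per2 was 0.21, and without sham replicate 1 it was 0.052. Per2 also did not pass when the fit held only the 9 libraries compared (0.0724), or with both times under 1 mean in that fit (0.301), or with a GC correction and surgery day as a block (0.0547), which left no clock gene called.

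Hcrtr2 encodes the orexin receptor 2, through which hypothalamic orexin neurons promote wakefulness. It ran from 1.21 to 2.54 CPM in contralateral cortex, with a median of 1.96 CPM, against 3.17, 4.39 and 4.78 CPM in sham cortex (chromosome 9, 76225880 to 76323856, minus strand). The groups did not overlap, and the fall was 2.22-fold (-1.15 ± 0.21, edgeR adjusted p = 0.0129). Hcrtr2 did not pass without sham replicate 3 (adjusted p = 0.254), without sham replicate 2 (0.109) or without contralateral replicate 1 at 6 h (0.0525), nor in fits of only the 9 libraries compared (0.0978, and 0.248 with surgery day as a block). Prdm15, a zinc finger gene of the PRDM family, ran from 13.1 to 17.9 CPM in contralateral cortex, with a median of 14.3 CPM, against 18.4, 24.4 and 24.4 CPM in sham cortex. Its highest contralateral and lowest sham library nearly met. The fall was 1.50-fold (-0.58 ± 0.11, adjusted p = 0.032), and Prdm15 did not pass without sham replicate 3 (adjusted p = 0.411), sham replicate 2 (0.403), or contralateral replicate 2 at 3 h, 1 at 6 h or 2 at 6 h (0.106 to 0.116), nor in fits of only the 9 libraries compared (0.439, and 0.321 with surgery day as a block).

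1700016P03Rik is a noncoding transcript (chromosome 11, 75172560 to 75177633, plus strand) that contains the precursors of miR-212 (75173388 to 75173478) and miR-132 (75173682 to 75173747), a pair of neuronal microRNAs induced by the factor CREB. The count table has no row for either microRNA, so their mature levels were not measured. Their 3p strands are shown because they share 1 seed and so pair with the same target sites. Sequences are RefSeq's, 5′ to 3′ on GRCm38.p6, at chr11:75173443-75173464 for miR-212-3p and chr11:75173723-75173744 for miR-132-3p, and capitals mark the seed, bases 2 to 8.
mmu-miR-212-3p: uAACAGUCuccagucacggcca
mmu-miR-132-3p: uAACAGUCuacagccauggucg
The host transcript had 0.949, 2.41 and 1.47 CPM in contralateral cortex at 3 h and 1.91, 1.4 and 1.45 CPM at 6 h, against 4.15, 4.19 and 4.49 CPM in sham cortex. Every contralateral library was well below the closely spaced sham libraries. It fell 2.66-fold (-1.41 ± 0.22, edgeR adjusted p = 0.00394), and kept its call without any single library. When the fit held only the 9 libraries compared, with or without surgery day as a block, it did not pass (adjusted p of up to 0.198). It overlaps the gene Ovca2 on the opposite strand, and the strand setting of the counting is not given in the sources used here, so reads of the pair cannot be told apart in the overlap. Ovca2 itself averaged 5.91 ± 1.24 CPM in contralateral and 7.87 ± 0.885 CPM in sham cortex (-0.42, adjusted p = 0.819).

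The list of 26 immediate early genes gives the wider pattern. Of these, 4 fell (Egr1, Egr2, Arc and Dusp6), beside 0.0719% of all genes, and none was higher. At an unadjusted p under 0.05, 17 were lower, beside 2.47% of all genes. A log2 fold change below 0 was found in 24, against 48.6% of all genes. The list's median was -0.84, beside 0.01 for all genes. All 6 contralateral libraries lay below all 3 sham libraries in 1.59% of all genes and in 14 of the 26. Their summed level was 434 to 552 CPM in contralateral cortex at 3 h and 400 to 453 CPM at 6 h, against 781 to 1120 CPM in sham cortex. The list was drawn up with earlier results of these data known, and its count is a description.

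Several other members had log2 fold changes beyond -1 without passing. Fos, a subunit of the AP-1 factor, had 11.7, 12.4 and 10.0 CPM in contralateral cortex at 3 h and 10.6, 6.99 and 5.52 CPM at 6 h, against 47.5, 25.8 and 28.4 CPM in sham cortex. Sham replicate 1 was far above the other sham libraries, and the log2 fold change of -1.85 ± 0.45 did not pass (edgeR adjusted p = 0.231). Npas4, a factor specific to neuronal calcium signalling, averaged 4.77 ± 0.916 CPM in contralateral (SD, n = 6) and 16.9 ± 2.12 CPM in sham cortex (n = 3; -1.84 ± 0.43, adjusted p = 0.19). The nuclear receptor gene Nr4a1 averaged 20.3 ± 5.47 CPM in contralateral and 46.5 ± 13.2 CPM in sham cortex (-1.22 ± 0.27, adjusted p = 0.125). Egr4 averaged 5.88 ± 0.89 CPM in contralateral and 12.3 ± 4.03 CPM in sham cortex (-1.07 ± 0.22, adjusted p = 0.0755), and Junb 23.8 ± 7.22 CPM in contralateral and 52.8 ± 17.6 CPM in sham cortex (-1.15 ± 0.28, adjusted p = 0.231). In Fos and in these 4 genes, every contralateral library was below every sham library. Not all members shared the pattern: Jun averaged 19.9 ± 3.98 CPM in contralateral and 21.6 ± 1.67 CPM in sham cortex (-0.12, adjusted p = 0.995), and Egr3 15.6 ± 4.33 CPM in contralateral and 16.4 ± 1.68 CPM in sham cortex (-0.08, adjusted p = 0.995).

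The count of list members that fell depended on sham replicate 1 and on the fit. Without sham replicate 1, none of the 26 passed, with log2 fold changes of -1.83 for Arc (adjusted p = 0.0547), -1.27 for Egr1 (0.052), -0.80 for Dusp6 (0.0706) and -2.12 for Egr2 (0.241). The count was 4 without sham replicate 2, and 3 without sham replicate 3 or any single contralateral library. It was 7 when the fit held only the 9 libraries compared, and 10 with DESeq2.

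**Figure D2:**
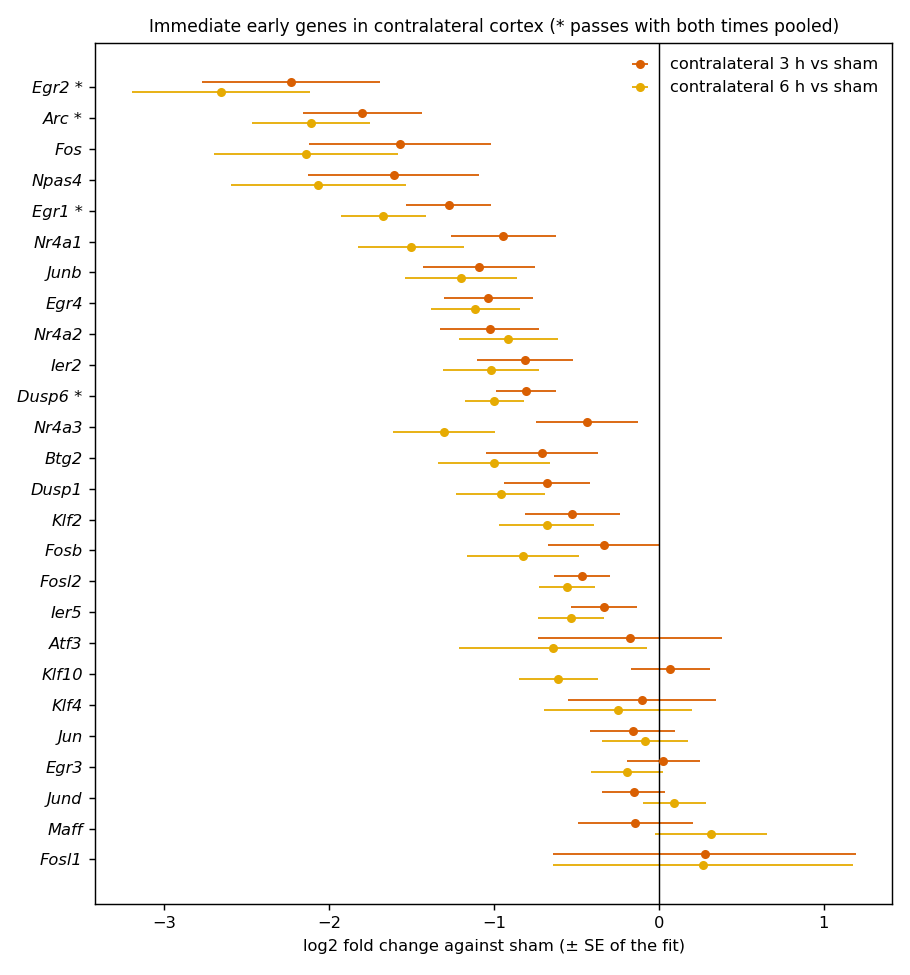
Log2 fold change against sham of the 26 immediate early genes in contralateral cortex at 3 h and at 6 h, with the SE of the fit as bars. An asterisk marks the 4 genes that passed with both times pooled, and most points at both times lie below 0.

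Synaptic and secreted genes regulated by activity formed a second list. Of 20 activity-regulated synaptic and secreted genes, 4 were lower at an unadjusted p under 0.05, beside 2.47% of all genes. None of the 20 passed, and their median was -0.23. Their summed level was 1200 to 1430 CPM in contralateral and 1480 to 1500 CPM in sham libraries, which did not overlap. Bdnf, a neurotrophin, averaged 12.8 ± 2.98 CPM in contralateral and 18.9 ± 1.26 CPM in sham cortex (-0.58, edgeR adjusted p = 0.711). Pcsk1, a protease that processes prohormones, averaged 46.9 ± 5.06 CPM in contralateral and 61.4 ± 2.37 CPM in sham cortex (-0.39, adjusted p = 0.59), and Rgs2, a regulator of G protein signalling, 19.3 ± 2.10 CPM in contralateral and 24.5 ± 2.63 CPM in sham cortex (-0.35, adjusted p = 0.546).

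The other lists that were examined had no member past the threshold. They cover glucocorticoid-responsive, heat shock, cytokine, acute-phase, interferon-stimulated, reactive astrocyte, glutamate uptake, hypoxia, p53, integrated stress response, Nrf2, FoxO and cholesterol synthesis genes, ion channels and transmitter receptors, mitochondrial and ribosomal protein genes, and markers of 14 cell types or tissues. The inducible chaperone Hspa1a averaged 3.62 ± 0.495 CPM in contralateral and 3.63 ± 0.709 CPM in sham cortex (-0.01 ± 0.32, edgeR adjusted p = 0.999), although its reads may be shared with its near-identical neighbour Hspa1b. Gfap, the intermediate filament of reactive astrocytes, averaged 81.0 ± 24.0 CPM in contralateral and 76.2 ± 11 CPM in sham cortex (0.07, adjusted p = 0.995), and the astrocytic glutamate transporter gene Slc1a2 3280 ± 541 CPM in contralateral and 2970 ± 394 CPM in sham cortex (0.14, adjusted p = 0.988). Of the 22 AMPA, NMDA and GABA-A receptor subunit genes, 21 had a log2 fold change above 0. Among all genes, 48.6% were below 0. The changes of the 22 genes were small, at most 0.23, and none passed. Their summed level was 5750 CPM in contralateral replicate 1 at 3 h, the library that stood apart, and 4110 to 4960 CPM in the other 5 contralateral libraries, against 4190 to 4540 CPM in sham libraries. In the hypoxia list P4ha1, a collagen prolyl hydroxylase gene, came nearest to the threshold at 31.0 ± 2.77 CPM in contralateral and 46.7 ± 7.13 CPM in sham cortex (-0.59, adjusted p = 0.102).

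**Figure D3:**
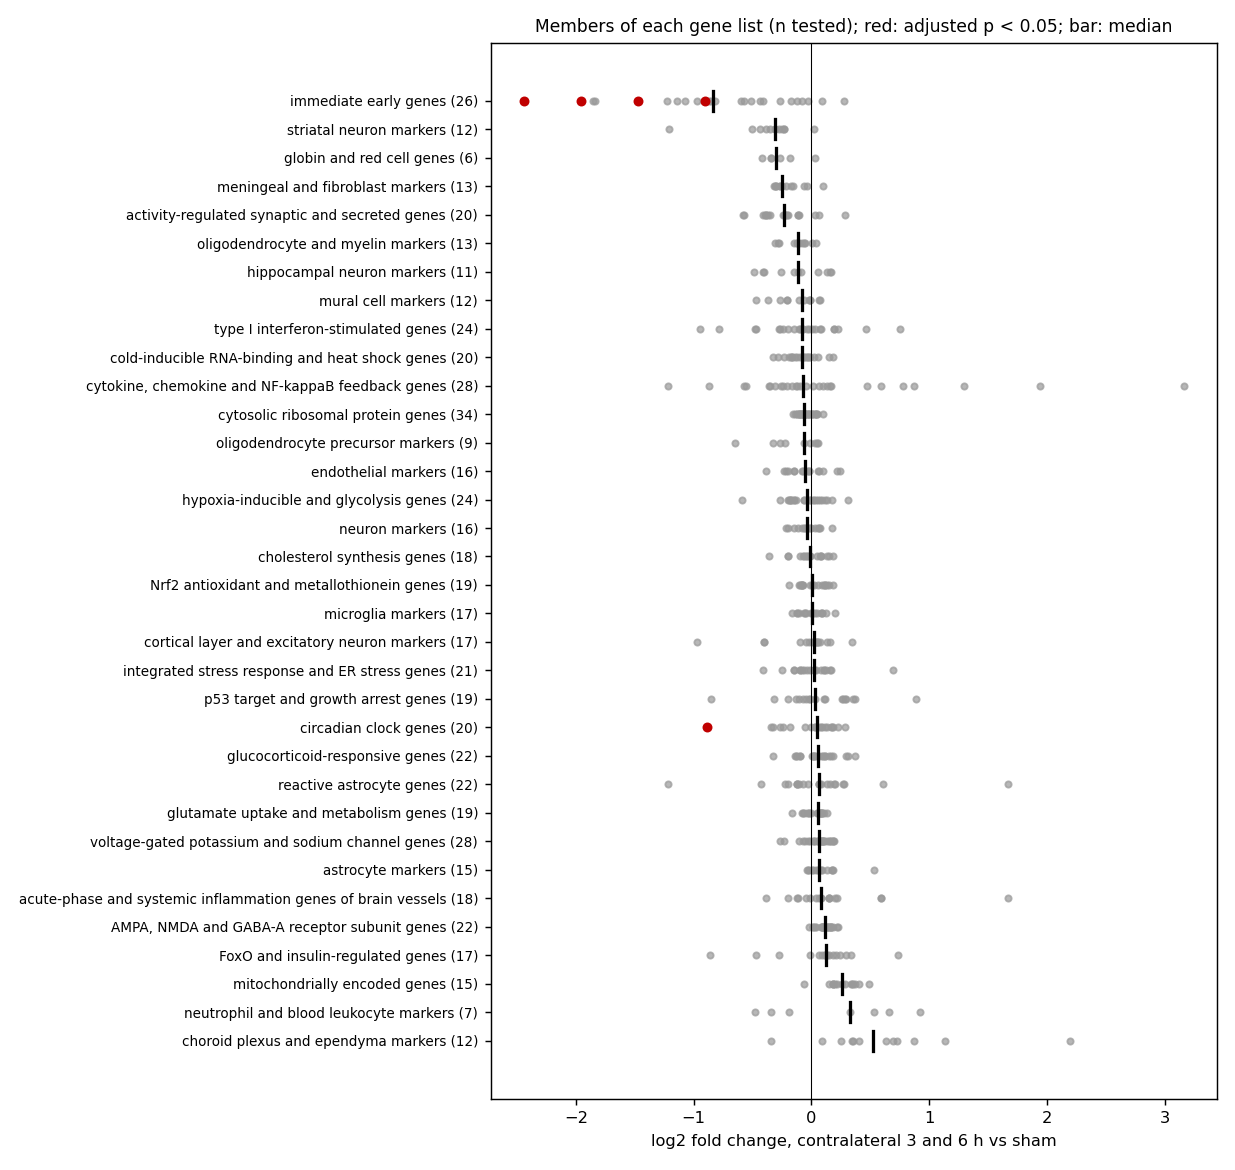
Log2 fold change of early contralateral over sham cortex for the tested members of 34 gene lists, 1 row per list with the number tested. Red points passed the test, grey points did not, and the black bar is the list's median. The immediate early genes lie farthest to the left with a median of -0.84, and the passing members are Egr1, Egr2, Arc and Dusp6 there and Per2 among the clock genes.

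No gene was significantly higher, but a few came near, and those named here passed in 1 or 2 of the 20 alternative settings. Zbtb42, a zinc finger gene, averaged 1.47 ± 0.468 CPM in contralateral (SD, n = 6) and 0.573 ± 0.0419 CPM in sham cortex (n = 3; 1.35 ± 0.30, edgeR adjusted p = 0.102). Txnip, which binds thioredoxin and restrains glucose uptake, ran from 22.8 to 34.2 CPM in contralateral cortex, against 19.1, 16.3 and 13.1 CPM in sham cortex. Its groups did not overlap, and its log2 fold change was 0.73 ± 0.17 (adjusted p = 0.136). Trhr2, a receptor for thyrotropin-releasing hormone, averaged 3.98 ± 0.49 CPM in contralateral and 2.30 ± 0.342 CPM in sham cortex (0.80, adjusted p = 0.171). The orphan receptor gene Gpr146 averaged 26.5 ± 2.96 CPM in contralateral and 17.9 ± 0.613 CPM in sham cortex (0.56, adjusted p = 0.141).

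Each time was also set against the same 3 sham libraries, so the 2 sets of values are not independent. At 3 h, Spry4 and Per2 fell, 0.0111% of the genes tested. Spry4 was -1.07 (edgeR adjusted p = 0.000203) and Per2 -1.15 (adjusted p = 0.00767). With surgery day as a block 6 genes passed in place of 2, and 1 passed without contralateral replicate 1 at 3 h, the library that stood apart, or without sham replicate 3; the count was 3 without sham replicate 1 or contralateral replicate 2, and 4 without contralateral replicate 3. At 6 h, 6 genes fell, 0.0332%: Spry4 (-0.91, adjusted p = 0.00313), Egr1 (-1.67, adjusted p = 0.0225), Arc (-2.11, adjusted p = 0.0414), Rnd3 (-1.02, adjusted p = 0.0262), Dusp6 (-1.0, adjusted p = 0.0262) and 1700016P03Rik (-1.43, adjusted p = 0.0414). This count was 0 without sham replicate 3 or contralateral replicate 2, and at most 3 without any other of its 6 libraries. The times themselves were not shown to differ. No gene passed between 6 h and 3 h (0 of the genes tested, smallest edgeR adjusted p 0.408, 0 with DESeq2 as well, 717 higher and 1022 lower at an unadjusted p under 0.05). For Per2, 6 h minus 3 h was 0.52 ± 0.18 on the log2 scale (adjusted p = 0.501) and for Egr1 -0.40 ± 0.26 (adjusted p = 0.601).

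In the injured hemisphere of mice at the same times the immediate early genes had other levels. Ipsilateral against contralateral cortex at 3 and 6 h compares the sides, and 9.34% of genes passed, 5.94% being higher and 3.39% lower in ipsilateral cortex (1689 genes, and 946 without ipsilateral replicate 2 at 6 h). Libraries of both sides may come from the same mice, and the fit took them as independent. With a replicate block the count was 1932. Of the 13 genes, 11 were higher in ipsilateral than in contralateral cortex. The 13 were picked as low in these same contralateral libraries, which favours a higher ipsilateral value, so the count is a description. Arc ran from 111 to 489 CPM in ipsilateral cortex with a median of 243 CPM, against 37.2 to 86.3 CPM in contralateral cortex, a log2 difference of 2.06 ± 0.26 (edgeR adjusted p = 3.8e-05). Spry4 ran from 9.70 to 25.2 CPM with a median of 16.1 CPM in ipsilateral cortex, against 7.39 to 8.76 CPM in contralateral cortex (0.89 ± 0.09, adjusted p = 3.38e-07). Rnd3 ran from 6.64 to 21.1 CPM with a median of 10.8 CPM in ipsilateral cortex, against 3.80 to 5.00 CPM in contralateral cortex (1.39 ± 0.13, adjusted p = 4.14e-08). In these 3 genes the ranges of the sides did not overlap. Egr2 differed by 3.34, Egr1 by 1.93, Dusp6 by 1.13 and Per2 by 0.77. Of the 26 immediate early genes 22 were higher in ipsilateral cortex, with a median of 1.33.

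Ipsilateral cortex was also set against sham, with the same sham libraries and 3.02% of genes passing. For 11 of the 13 genes the edgeR test called no difference there: Arc had a log2 fold change of 0.10 ± 0.30 (adjusted p = 0.908), Egr1 0.45 ± 0.23 (adjusted p = 0.323), Spry4 -0.10 ± 0.11 (adjusted p = 0.716) and Per2 -0.12 ± 0.15 (adjusted p = 0.756). Values that miss the threshold do not show that the groups were alike, and for Egr2 the estimate was 0.90 ± 0.43. The 2 exceptions were lower than sham on both sides. The 13 were picked as low against these same sham libraries, which favours a low ipsilateral value, so these values are not independent. 1700016P03Rik ran from 1.67 to 2.18 CPM in ipsilateral cortex and was 2.36-fold lower than in sham (-1.24 ± 0.22, adjusted p = 0.00143), and Hcrtr2 ran from 1.30 to 2.63 CPM and was 1.93-fold lower (-0.95 ± 0.21, adjusted p = 0.00906). Between the sides these genes differed by 0.17 ± 0.19 and 0.20 ± 0.18 (adjusted p = 0.658 and 0.554).

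**Figure D4:**
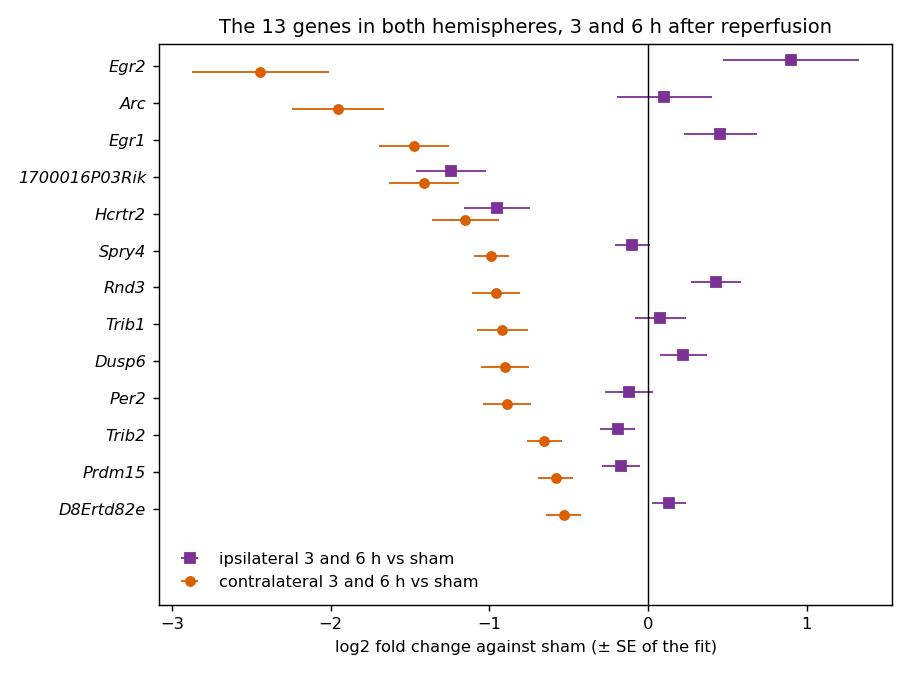
Log2 fold change against sham of the 13 genes in ipsilateral (squares) and contralateral cortex (circles), 3 and 6 h pooled, with the SE of the fit. Contralateral values all lie below 0, at -0.53 or lower, and the ipsilateral values of 11 genes lie to their right, while those of 1700016P03Rik and Hcrtr2 lie beside them.

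Against contralateral cortex at 12 and 24 h, early contralateral cortex was lower for 4 of the 13 genes, where 2.01% of genes passed and 0.78% were lower. The 13 were picked as low in these same early libraries, so this count too is a description. Rnd3 averaged 4.51 ± 0.463 CPM early and 7.48 ± 1.14 CPM late (SD, n = 6 each; -0.72 ± 0.13, edgeR adjusted p = 0.00255), beside 8.78 ± 0.579 CPM in sham cortex. Prdm15 averaged 15.0 ± 1.85 CPM early and 24.5 ± 3.39 CPM late (-0.71 ± 0.10, adjusted p = 0.000116), Egr1 35.3 ± 6.62 CPM early and 58.9 ± 19.0 CPM late (-0.72 ± 0.18, adjusted p = 0.0418), and D8Ertd82e 19.0 ± 2.92 CPM early and 24.7 ± 1.41 CPM late (-0.38 ± 0.09, adjusted p = 0.0211). Arc, Spry4, Trib1 and 1700016P03Rik were not called between early and late, and each of them was lower than sham at the late times too, where 0.293% of genes passed (edgeR adjusted p = 0.0232, 0.00141, 0.0232 and 0.00318). These late values rest on the same sham libraries by which the 13 were picked, so they are not independent. Late values of Egr2, Hcrtr2, Dusp6, Per2 and Trib2 are not given here.

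Other genes set early apart from late contralateral cortex without passing against sham. Of 18 cholesterol synthesis genes, 12 were higher early than late, beside 1.23% of all genes, with a median log2 fold change of 0.48, while their median against sham was -0.02. Insig1, which holds the sterol-sensing complex in the endoplasmic reticulum, averaged 97.1 ± 11.4 CPM early and 54.4 ± 4.65 CPM late (0.83 ± 0.10, edgeR adjusted p = 2.51e-05), beside 88.3 ± 7.06 CPM in sham cortex. Mvd, an enzyme of the mevalonate pathway, averaged 13.2 ± 2.81 CPM early and 6.91 ± 0.946 CPM late (0.93 ± 0.13, adjusted p = 0.000116), beside 15.1 ± 0.788 CPM in sham cortex. Txnip averaged 27 ± 4.15 CPM early and 13.9 ± 4.30 CPM late (0.98 ± 0.14, adjusted p = 0.000203) and Trhr2 3.98 ± 0.49 CPM early and 1.8 ± 0.417 CPM late (1.15 ± 0.16, adjusted p = 0.000116). The count of 364 genes between early and late ran from 172 without replicate 1 at 6 h to 664 without replicate 1 at 3 h. It was 208, 223, 231 and 217 without 12 h replicates 2 and 3 and 24 h replicates 1 and 2.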

How the data were processed

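Total RNA depleted of ribosomal RNA was sequenced from cortex. The authors deposited a table of raw read counts per gene for 27 libraries in 9 groups of 3. Per the submitters' processing notes the genome build was mm10, the aligner STAR (2.5.0a) and the counter featureCounts (1.4.3-p1), and edgeR is named as well. Which annotation and strand setting they used is not given in the sources used here. Without strand, reads of overlapping genes may be assigned to either.

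Of 22340 rows, filterByExpr (minimum count 10, minimum total 15) left 18087 and took out 0.0116% of counts. All 27 libraries entered 1 quasi-likelihood fit of edgeR 4.0.16 in R 4.3.3 (TMM, 1 mean per group, robust, 18 residual degrees of freedom, no block). The early contralateral value is the mean of its 2 groups. Adjusted p are Benjamini-Hochberg over all tested genes, at a threshold of 0.05. SE were derived from the test statistic. The fit was tested on simulated data. The members, gene lists, families and tests were chosen with earlier results of these data known. Named genes were up to 12 per direction with the largest log2 fold change among those that passed, with a mean of 1 CPM or more in the higher group. Where fewer passed, genes with the smallest p filled the 12, given as not passing. All that passed, the list members with the smallest p and a followed set were also named. Ovca2 was added because it overlaps a called gene. Coordinates came from GENCODE M21, and promoter and microRNA sequences from RefSeq.

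Replicate numbers mark surgery days, per the series' design text, so they pair libraries. After group means were removed, same-numbered libraries of the 3 groups correlated at 0.0345 on average (9 pairs, 2 above 0.1) and others at -0.0171 (18 pairs). Alternatives were RLE size factors, no filter, a filter of 1 CPM in 3 libraries, only the compared groups, both times under 1 mean, DESeq2 1.42.0, a replicate block, a GC correction (spline with 4 degrees of freedom), abundant RNAs left out, and each library left out.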

Additional observations from a re-analysis of the deposited data

Results flagged for a closer look

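Among the 6 early contralateral libraries, 8 of 86 screened values held 1 library far from the other 5, where chance flags about 1 in 20. Replicate 1 at 3 h, the library whose levels follow GC content, had 4 of them. Its Kcns2, a silent potassium channel subunit gene, was at 95.2 CPM, against 40.2 to 57.1 CPM in the others. Its Dbp, a clock output gene, was at 20.7 CPM, against 31.5 to 35.1. Its summed ribosomal protein genes were at 2620 CPM, against 3740 to 3930, and its hypoxia and glycolysis genes at 2530 CPM, against 3040 to 3230. Replicate 1 at 6 h had 752 CPM of choroid plexus and ependyma markers, against 165 to 252. Replicate 2 at 6 h had 6060 CPM of astrocyte markers, against 7150 to 7360, and 1.37 CPM of H2-Bl, an MHC class I gene, against at most 1.21. Replicate 2 at 3 h had 642 CPM of FoxO and insulin-regulated genes, against 684 to 706.

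The effect against sham differed between ipsilateral and contralateral cortex at 3 and 6 h in 25 of 40 genes screened (edgeR quasi-likelihood test of the difference), beside 9.34% of all genes. The 40 include the 13 genes that were low in contralateral cortex, 11 of them among the 25, so the count is a description. Values are log2 differences, ipsilateral minus contralateral, with adjusted p, over 6 libraries a side, taken as independent. Among genes of neuronal activity and ERK signalling they were 2.06 for Arc (3.8e-05), 1.93 for Egr1 (6.83e-07), 3.34 for Egr2 (1.44e-05), 3.39 for Fos (3.27e-05), 3.66 for Npas4 (7.29e-06), 0.92 for Nr4a1 (0.0141), 1.30 for Junb (0.00179) and 0.81 for Bdnf (0.00272). Dusp6 differed by 1.13 (7.17e-07), Dusp1 by 0.96 (0.00233), Spry4 by 0.89 (3.38e-07), Trib1 by 1.00 (9.9e-06), Trib2 by 0.47 (0.00171), Rnd3 by 1.39 (4.14e-08), Prdm15 by 0.41 (0.00614) and D8Ertd82e by 0.67 (1.55e-05). The clock genes Per2, Per1 and Arntl differed by 0.77 (0.000241), 0.47 (0.0268) and 0.57 (0.00112). Heat shock genes differed most, by 6.20 for Hspa1a (5.64e-11) and 6.24 for Hspa1b (4.23e-10), a pair whose reads may be shared. The glucocorticoid-responsive genes Fkbp5, Tsc22d3 and Hif3a were lower in ipsilateral cortex, by -0.66 (0.0393), -0.59 (0.0233) and -0.87 (0.00327), as was the cold-inducible gene Cirbp, by -0.38 (0.0448). The 22 glucocorticoid-responsive genes, Per1 among them, went both ways, with a median of -0.01. Of these, 4 were higher and 5 lower in ipsilateral cortex, beside 5.94% and 3.39% of all genes.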

How the results depend on the processing

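The 13 genes of early contralateral against sham cortex, all lower, became 46 with DESeq2 (34 lower, 12 higher), 12 to 16 in the other fits of all 27 libraries (1 of the 16 higher), and 11 in both unblocked fits of only the compared groups, of which 8 were among the 13. They numbered 5 to 13 with 1 library left out (1 of the 12 higher without contralateral replicate 3 at 6 h). A replicate block gave 12, of which 11 were among the 13, and 10 in a fit of only the compared groups, chosen after seeing the data, of which 7 were. In the fit of all libraries the block took out the calls of Egr2 and D8Ertd82e among the 13, and it changed the 3 h count. Its effect on the calls of single genes in the other comparisons was not examined. For 3 h against sham (2 genes) the count was 4 with RLE size factors, 6 without a filter, 5 with a filter of 1 CPM, 1 with only the compared groups, 34 with DESeq2 (9 higher), 6 with a replicate block, 7 with a GC correction, 10 with both (3 higher), 4 without abundant RNAs, and 1 to 4 with 1 library left out, at most 1 gene being higher in each of the others. For 6 h against sham (6 genes) it was 27 with only the compared groups (8 higher), 22 with DESeq2 (2 higher) and 0 to 3 with 1 library left out. For 6 h against 3 h (0 genes) it was 1 with the GC correction and 1 with the block as well. For early against late (364) it was 200 with only the compared groups, 633 with DESeq2, 591 with the GC correction, 745 with the block as well, and 172 to 664 with 1 library left out. For ipsilateral against contralateral (1689) it was 2558 with GC correction and block, and 946 to 2042 with 1 library left out. The direction reversed only in genes near 0 against sham: Hspa1a (0.03 with the GC correction, 0.02 with the block as well), Lcn2 (0.09 with both times under 1 mean), and, with 1 library left out, Dbp (-0.05 to 0.12), Fkbp5 (-0.03 to 0.08), Tsc22d3 (-0.01 to 0.07), Plin4 (-0.06 to 0.23), Pdk4 (-0.02 to 0.14), Hspa1a (-0.13 to 0.15), Hspa1b (-0.25 to 0.16), Gfap (-0.08 to 0.14), Slc1a3 (-0.01 to 0.16) and Lcn2 (-0.28 to 0.02). Of 1040 values of 52 genes over the alternatives, 939 kept direction and side of the threshold, 53 lost and 27 gained a call. The cause of each change was not tested. The 3 sham libraries limit the precision of every value against sham.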
